A study of Mus musculus with 4 samples.

Results

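The genes described here build and run the primary cilium, and they were taken by symbol from the table of read counts: the intraflagellar transport genes (Ift followed by a number), the Bardet-Biedl genes (Bbs followed by a number) with Arl6, the transition zone genes, and a set of ciliary motor, basal body and membrane genes. The symbols matched 46 of 27293 genes. The rule is by symbol and sets no threshold on expression, but it was chosen with earlier results of these data known. All 46 had at least 100 counts in every library, from 107 for Bbs10 in cKO 1 to 2387 for Gpr161 in WT 2, so none was lost to the filter on low counts that left 16145 genes for testing. They lie on 18 chromosomes, with 1 of them (Ofd1) on the X chromosome, and 45 are listed as protein coding.

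Bulk RNA-seq was made from telencephalic tissue of E13 (embryonic day 13) C57BL/6 mice, with 2 libraries labelled WT and 2 labelled STINGf/f;Nestin-Cre, called cKO here. In cKO mice both copies of STING (gene symbol Tmem173), an adaptor of cytosolic DNA sensing, carry sites for Cre recombinase, which the Nestin promoter drives in neural progenitors and in the cells that descend from them. Cre is therefore not directed at blood, meninges or other cells that do not come from these progenitors, and whether the WT mice carried Cre or a floxed allele is not given in the labels. WT 2 carries another abbreviation than WT 1 in its title, which the labels do not explain, and the labels do not say whether the 2 libraries of a group came from separate embryos. Transcripts of the Y chromosome were present in WT 1 and had no count in WT 2 (given with Ofd1), so the WT libraries did not hold RNA of the same embryo, while for the cKO libraries the p-values rest on a spread that may be technical.

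A primary cilium is a single antenna of the cell membrane built on the older centriole of the cell. In the embryonic cortex the radial glia extend it into the fluid of the ventricle, where it receives signals such as Hedgehog. Trains of IFT-B and IFT-A proteins carry cargo along its microtubules, outward by the motor kinesin-2 and back by dynein-2. The BBSome, a coat-like complex, moves membrane proteins out of the cilium, and the transition zone at its base, made of the MKS and NPHP modules, decides which proteins may pass.

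No member passed the test of a difference between the genotypes, and the 95% interval of each member excluded a 2-fold difference in either direction. Levels are given as CPM, the count of a gene scaled to a library total of 1000000, with a TMM factor that evens out the composition of libraries, and values are listed in the order of the replicate numbers. The 46 genes summed to 1441 and 1438 CPM in WT 1 and WT 2, and to 1444 and 1453 CPM in cKO 1 and cKO 2. The means were 1440 ± 2.44 CPM in WT and 1448 ± 6.42 CPM in cKO (SD, n = 2 each), and both cKO libraries lay above both WT libraries by a margin that was small beside the sums. Without TMM factors the groups overlapped: as a share of all counts the members took 0.14563% in WT 1 and 0.14287% in WT 2. In cKO 1 and cKO 2 they took 0.14482% and 0.14347%.

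The libraries held 17209654 to 18533391 counts, of which the members took 0.143% to 0.146%, and the level still possible for a gene with no count (3 counts) was 0.162 to 0.174 CPM. Tmem173 itself was counted 20 and 19 times in the WT libraries and 18 and 22 times in the cKO libraries, with a log2 fold change (cKO minus WT) of 0.02 with SE 0.45 (edgeR's quasi-likelihood test, adjusted p = 0.9999). The counts cover the whole gene, the deleted exons are not given in the sources used here, and the genotype could not be checked from them. Summed CPM ran from 2993 to 3187 for 10 markers of cortical progenitors and from 5698 to 6667 for 10 of cortical neurons. The neuron list includes Eomes (Tbr2), which the study used as a progenitor marker. No markers of other brain regions, such as the midbrain, were listed, so the tissue label itself was not tested. WT 1 stood apart from the other libraries. It held the most RNA of 10 choroid plexus markers (62.0 CPM against 7.47 to 10.7 in the others), of 10 markers of meninges and mesenchyme (308 against 45.8 to 83.3) and of 16 markers of multiciliated cells (80.5 against 29.7 to 32.1), and each marker of these lists was highest in WT 1. The 7 blood markers summed to 1071 CPM in WT 1 and to 470 to 722 CPM in the others. The cKO libraries differed from each other with the base composition of transcripts, described with the spread between libraries.

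**Figure D1:**
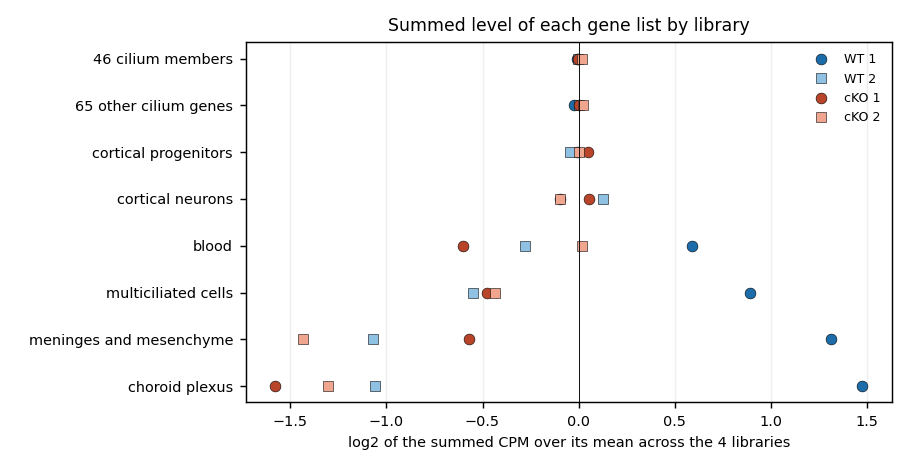
Summed CPM of the cilium genes and of marker lists in each library, as the log2 of the library's sum over the mean of the 4 libraries (horizontal axis, 0 is the mean), with 1 point per library. The CPM come from the fit with no filter on low counts, so the sums of the 46 genes differ slightly from those in the text. The 46 cilium genes and the 65 other cilium genes stay close to 0, while the sums for choroid plexus, meninges and multiciliated cells are set apart in WT 1.

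Markers of multiciliated cells matter here because those cells carry many motile cilia and use the same transport genes. Foxj1, the transcription factor that switches on motile cilia, was at 28.6 and 11.2 CPM in WT 1 and WT 2, and at 12.2 and 17.5 CPM in cKO 1 and cKO 2. The summed CPM of the members was slightly lower in WT 1 than in cKO 1 and cKO 2. As a share of all counts, without TMM factors, it was highest in WT 1 (0.14563%) and lowest in WT 2 (0.14287%). Whether the members follow the markers of multiciliated cells was not tested. Without WT 1, the median log2 fold change of the members was 0.06, and 8 of the 46 log2 fold changes had the other sign. In bulk tissue, fewer cells of a type and less RNA per cell cannot be told apart.

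Several members share a stretch of promoter sequence that the choice of symbols did not use. The X-box, a palindrome bound by RFX transcription factors, is known from promoters of cilium genes. It was searched as its paired half-sites, GTTNCC and GGNAAC with 0 to 3 bases between them (a pattern that reads the same on both strands), in RefSeq windows of 250 bases before to 50 after each transcription start (GRCm38.p6). Of the members, 39 had a window, and 6 of these 39 (15.4%) held the pattern, against 253 of all 27025 symbols with a window (0.936%) and 5 of 60 other cilium genes (8.33%). The shares over all symbols, here and below, are not matched to the members for gene type or level. These 6 stretches are shown because they carry the full pattern, each 5′ to 3′ on the strand of its gene, with the paired half-sites and the bases between them in capitals.
Ahi1, chr10:20952560-20952589, plus strand, 22 bases after the start: tagtctgaGTTACCTAGGCAACagcggcag
Bbs7, chr3:36613489-36613518, minus strand, 108 bases before the start: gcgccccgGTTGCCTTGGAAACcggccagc
Ift57, chr16:49699226-49699255, plus strand, 48 bases before the start: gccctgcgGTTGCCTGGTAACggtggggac
Mks1, chr11:87853183-87853212, plus strand, 11 bases before the start: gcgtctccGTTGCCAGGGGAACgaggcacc
Tctn1, chr5:122264411-122264440, minus strand, 37 bases after the start: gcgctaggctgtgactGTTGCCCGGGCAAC
Tctn3, chr19:40612350-40612379, minus strand, 128 bases before the start: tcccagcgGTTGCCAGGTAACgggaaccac

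By the gene bounds of the deposited table, the stretches of Bbs7, Mks1 and Tctn3 lie upstream of their genes, those of Ahi1 and Tctn1 lie inside them, and that of Ift57 spans its first base. 4 of the 6 belong to the MKS module (Ahi1, Mks1, Tctn1 and Tctn3), which holds 11 of the 46 members, all with a window except Tmem67. A longer single half-site, GTTGCCA on either strand, which overlaps the paired pattern where the left half-site is GTTGCC followed by A, was present for 9 of the 39 members (23.1%; B9d1, Bbs1, Dync2h1, Ift27, Ift88, Mks1, Nphp4, Tctn2 and Tctn3) against 5.02% of all symbols and 9 of 60 other cilium genes (15%), and 2 members (Mks1 and Tctn3) held both. A match describes the letters of a window and not a bound site. For 7 members, among them Tmem67, Ift80, Ift81, Dync2li1 and Ift122, no window was used here. None of the 6 passed the test between genotypes, with log2 fold changes of -0.13 (Ift57), -0.11 (Ahi1), -0.11 (Tctn3), -0.09 (Bbs7), -0.05 (Tctn1) and 0.06 (Mks1).

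The comparison of cKO with WT, made by the study to look for molecular changes behind the effects of losing STING, was fitted over all 16145 genes with edgeR's quasi-likelihood test. The study called genes with a 2-fold or larger change at a p of 0.05 or less. Its methods do not say whether this p was adjusted. Read as an unadjusted p, this rule called 0 of 46 members, beside 131 of all genes tested (0.811%). An unadjusted p of at most 0.05 alone was reached by 0 members and by 199 genes (1.23%). No gene of the table had an adjusted p under 0.05 (0 of 16145, 0%), in edgeR or in DESeq2, which gave 127 genes an unadjusted p of at most 0.05. The smallest unadjusted p of a member was 0.288 (Bbs2) and the largest was 0.998 (Ofd1). At background shares this low, less than 1 call would be looked for among 46 genes, so a count of 0 does not set the members apart from other genes.

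The log2 fold changes of the members were small and balanced. They ran from -0.17 (Arl6, a fold of 0.891) to 0.21 (B9d2, a fold of 1.16), with 23 above 0 and 23 below, and their median was 0.01 against -0.01 over all genes tested. 45 of the 46 (97.8%) were within 0.2 of 0 on the log2 scale, compared with 67.0% of all genes, and the exception was B9d2. These shares are not matched for level. All members had at least 100 counts in every library, while the genes tested include some with few, such as Mcidas with 2 counts in WT 2. The precision of the fit set what could be seen. The SE ran from 0.143 (Ahi1) to 0.320 (Cep290) with a median of 0.195, and the 95% intervals of all 46 members stayed within 1 on the log2 scale, a 2-fold difference in either direction. For 15 members the interval also stayed within 0.5, a fold of 1.41, while for the other 31 it reached past 0.5 on one side or the other, so a difference of that size was not excluded for them. The interval was narrower than 0.5 to either side of the estimate for 36 members and as wide or wider for 10. The bounds of the intervals reached -0.77 (Bbs10) and 0.82 (Cep290).

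**Figure D2:**
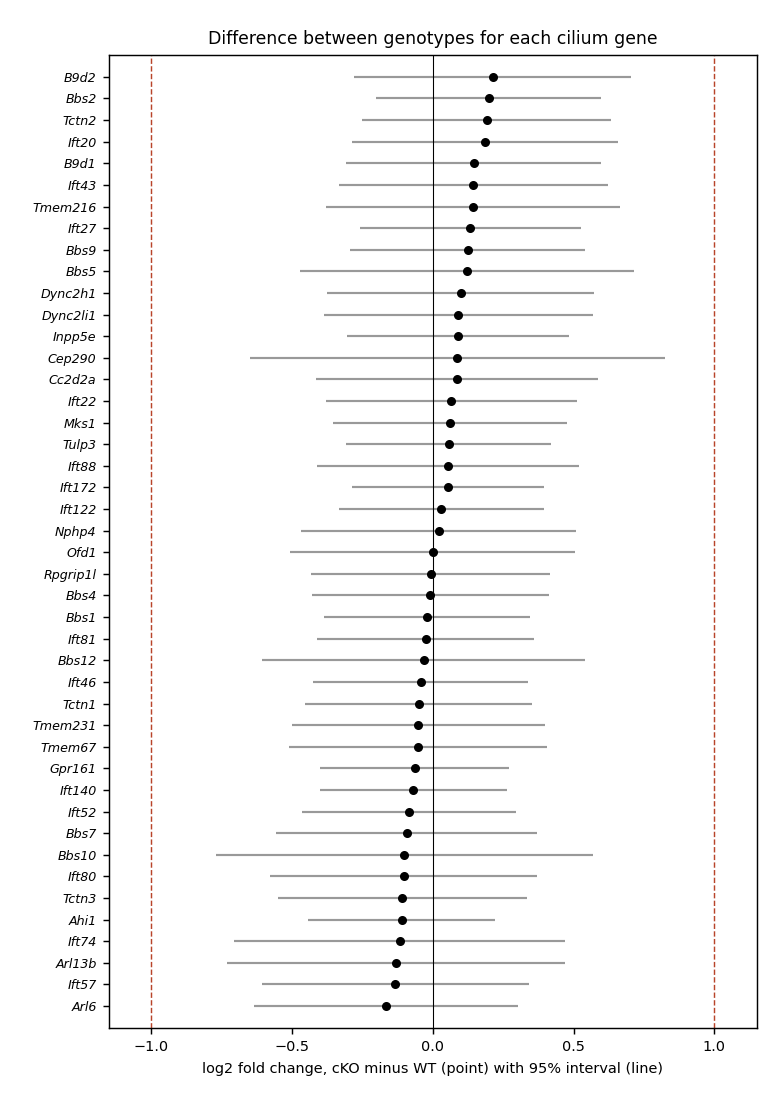
Fitted log2 fold change (cKO minus WT) of 44 of the 46 cilium genes (points) with its 95% interval (lines), ordered by size, with dashed lines at a 2-fold difference. The points lie between -0.17 and 0.21, each interval includes 0, and no interval reaches a 2-fold difference.

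The groups did not overlap, in either direction, for 11 members, and this was about as frequent as among all genes. Both cKO libraries lay above both WT libraries for 5 members (10.9%; Mks1, Bbs9, B9d1, Tctn2 and Bbs2), beside 11% of all genes. Both lay below for 6 members (13%; Ift57, Ahi1, Tctn3, Ift52, Ift140 and Bbs1), beside 10.8% of all genes. Differences within these sets could be very small, as for Bbs1, whose means were 43.2 ± 0.187 CPM in WT and 42.5 ± 0.478 CPM in cKO (SD, n = 2). An exact permutation test of 2 libraries against 2 cannot give a two-sided p below 0.333.

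IFT-B is the complex that drives cargo outward, and its 11 genes summed to 440 ± 12.6 CPM in WT and 442 ± 16.6 CPM in cKO (SD, n = 2), or 100.3% of WT. 5 of them had a log2 fold change above 0 and 6 below. Ift20, whose product also sits at the Golgi and carries membrane proteins toward the cilium, had the highest level per length of all members (22.2 CPM per kilobase of exon). It was at 31.4 and 32.1 CPM in WT 1 and WT 2, and at 30.2 and 42.0 CPM in cKO 1 and cKO 2. cKO 2 alone was high, cKO 1 was the lowest of the 4 libraries, and the log2 fold change of 0.19 (SE 0.204, 95% interval -0.29 to 0.66) did not pass the test (unadjusted p = 0.392, edgeR's quasi-likelihood test). Ift74, which with Ift81 binds tubulin for transport, was at 37.0 and 28.1 CPM in WT 1 and WT 2, and at 36.7 and 23.3 CPM in cKO 1 and cKO 2. The first library of each genotype was the higher one, so the groups interleaved, and the log2 fold change was -0.12 (SE 0.255, unadjusted p = 0.654).

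Ift46, the IFT-B gene with the highest mean CPM, was at 78.9 and 85.2 CPM in WT and at 70.6 and 88.6 CPM in cKO, so the cKO libraries enclosed the WT libraries (log2 fold change -0.04). Ift88, without which cilia fail to form and which is widely used to remove them in mice, was at 20.8 and 17 CPM in WT and at 20.4 and 18.8 CPM in cKO. Here the WT libraries enclosed the cKO libraries, and the log2 fold change was 0.05 with a 95% interval of -0.41 to 0.52 (unadjusted p = 0.796). Ift57, a subunit at the outer part of the complex and the IFT-B gene with the lowest mean, was at 14.1 and 14.7 CPM in WT and at 13.2 and 13.2 CPM in cKO. Both cKO libraries were the lower ones, by a log2 fold change of -0.13 (SE 0.206, unadjusted p = 0.536), and 7.86% of its exon bases also belong to a gene on the opposite strand that had 4 counts in all. The other 6 IFT-B genes (Ift22, Ift27, Ift52, Ift80, Ift81 and Ift172) had log2 fold changes from -0.10 to 0.13.

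IFT-A, which serves the return path and the entry of membrane proteins, and the motor of that path moved as little. The 3 IFT-A genes summed to 145 ± 0.209 CPM in WT and 145 ± 8.80 CPM in cKO (SD, n = 2). Ift140, a core subunit, was at 74.99 and 76.2 CPM in WT and at 70.7 and 73.4 CPM in cKO. Both cKO libraries were lower, with a log2 fold change of -0.07 (unadjusted p = 0.638). Ift43, a small subunit at the edge of the complex, was at 21.7 and 23.0 CPM in WT and at 21.04 and 28.3 CPM in cKO. As with Ift20, cKO 2 was the highest library and cKO 1 the lowest, and the log2 fold change was 0.14 (unadjusted p = 0.507).

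The 2 dynein-2 genes among the members summed to 59.0 ± 1.13 CPM in WT and 63.1 ± 9.15 CPM in cKO (SD, n = 2). Dync2h1, the heavy chain that generates force, was at 41.4 and 44.2 CPM in WT 1 and WT 2, and at 53.9 and 37.7 CPM in cKO 1 and cKO 2. The cKO libraries were the highest and the lowest of the 4, so the log2 fold change of 0.10 (SE 0.205, unadjusted p = 0.641) lay well inside their spread. Dync2li1, the light intermediate chain that steadies the heavy chain, went the other way between the same libraries, with 16.9 and 15.6 CPM in WT and 15.6 and 18.97 CPM in cKO (log2 fold change 0.09).

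The BBSome subunits and the genes that assemble or recruit the complex, 9 in all, summed to 179 ± 1.37 CPM in WT and 181 ± 4.59 CPM in cKO (SD, n = 2), with 3 above 0 and 6 below. Bbs2, a subunit of the core on which the complex is assembled, was at 31.1 and 28.6 CPM in WT 1 and WT 2, and at 32.6 and 35.9 CPM in cKO 1 and cKO 2. Both cKO libraries were above both WT libraries, and it had the smallest p of the members, with a log2 fold change of 0.20 (SE 0.173, 95% interval -0.20 to 0.60, unadjusted p = 0.288, adjusted p = 0.9999 by edgeR's quasi-likelihood test). Arl6, the small GTPase that brings the BBSome to the membrane, had the lowest log2 fold change of all members. It was at 20.01 and 18.8 CPM in WT and at 19.02 and 15.6 CPM in cKO, so cKO 1 fell between the WT libraries and cKO 2 was low (log2 fold change -0.17, SE 0.203, unadjusted p = 0.436).

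Bbs1, the subunit that Arl6 contacts and the one with the highest mean CPM in the group, varied least, from 42.2 to 43.3 CPM over the 4 libraries (log2 fold change -0.02). Bbs10, a chaperonin-like protein that helps assemble the complex, had the lowest CPM of all members. It was at 8.05 and 6.03 CPM in WT and at 5.85 and 7.28 CPM in cKO, and its log2 fold change of -0.10 had an SE of 0.290. The other BBSome genes (Bbs4, Bbs5, Bbs7, Bbs9 and Bbs12) had log2 fold changes from -0.09 to 0.12.

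The MKS module spans the membrane of the transition zone, and its 11 genes summed to 275 ± 2.61 CPM in WT and 275 ± 4.38 CPM in cKO (SD, n = 2), or 100.2% of WT. B9d2, a B9 domain protein that forms a complex with B9d1 and Mks1, had the highest log2 fold change of the members. It was at 14.1 and 16.2 CPM in WT 1 and WT 2, and at 15.8 and 19.3 CPM in cKO 1 and cKO 2. cKO 1 lay between the WT libraries, and the log2 fold change was 0.21 (SE 0.213, 95% interval -0.28 to 0.71, unadjusted p = 0.347). B9d1, its partner, was at 16.0 and 16.9 CPM in WT and at 17.2 and 19.3 CPM in cKO. Here both cKO libraries were higher, though cKO 1 only just, and the log2 fold change was 0.14 (SE 0.196, unadjusted p = 0.483). Mks1, the third of these proteins, was at 21.3 and 21.8 CPM in WT and at 22.9 and 22.0 CPM in cKO (log2 fold change 0.06).

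Tctn2, one of the tectonics that line the transition zone, was at 19.7 and 18.9 CPM in WT and at 20.3 and 23.8 CPM in cKO. Both cKO libraries were higher, with cKO 2 well above the rest (log2 fold change 0.19, SE 0.192, unadjusted p = 0.346), and this gene is the member not listed as protein coding. Its relative Tctn3 lay the other way, at 17.7 and 18.95 CPM in WT and at 17.2 and 16.8 CPM in cKO (log2 fold change -0.11, unadjusted p = 0.586). Ahi1, a scaffold protein of the transition zone that is mutated in Joubert syndrome, was the MKS gene with the highest mean CPM. It was at 84.9 and 87.4 CPM in WT and at 82.3 and 77.3 CPM in cKO, so both cKO libraries were lower by less than the fit could tell from 0 (log2 fold change -0.11, SE 0.143, 95% interval -0.44 to 0.22, unadjusted p = 0.460). Tmem216, a membrane protein of the module with the lowest mean CPM, was at 14.8 and 13.5 CPM in WT and at 13.4 and 17.7 CPM in cKO. cKO 1 and cKO 2 were again the lowest and the highest library (log2 fold change 0.14), and 5.15% of its exon bases are shared with Cpsf7 on the opposite strand. The remaining MKS genes (Tctn1, Cc2d2a, Tmem67 and Tmem231) had log2 fold changes from -0.05 to 0.08.

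The NPHP module, counted here with Cep290 and Rpgrip1l, summed to 89.2 ± 1.92 CPM in WT and 91.9 ± 2.29 CPM in cKO (SD, n = 2). Cep290, which ties the microtubules of the transition zone to the membrane, was the member that varied most between libraries of the same genotype. It was at 9.32 and 13.4 CPM in WT 1 and WT 2, and at 15.2 and 8.84 CPM in cKO 1 and cKO 2. The highest and the lowest library were both cKO, and the log2 fold change of 0.09 had the widest error of all members (SE 0.320, 95% interval -0.65 to 0.82, unadjusted p = 0.792). The transcript of Cep290 is the poorest in GC among the members (38.7%), it has the lowest level per length (1.01 CPM per kilobase of exon), and 7.58% of its exon bases are shared with a gene on the opposite strand. Nphp4, a scaffold of the module, and Rpgrip1l, which helps hold the zone together, had log2 fold changes of 0.02 and -0.01.

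Ofd1, a protein of the distal centriole on which the cilium is built, was at 21.4 and 21.3 CPM in WT and at 24.98 and 17.7 CPM in cKO. The WT libraries were close to equal and the cKO libraries lay on both sides of them, so the log2 fold change was 0.00 with SE 0.219. Ofd1 is X-linked, and 4 Y-linked genes (Uty, Kdm5d, Eif2s3y and Ddx3y) together had 2735 and 0 counts in WT 1 and WT 2, and 3002 and 1848 counts in cKO 1 and cKO 2. The part of this difference in the level of Ofd1 was not tested.

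The 4 genes of ciliary membrane cargo summed to 231 ± 9.52 CPM in WT and 229 ± 2.15 CPM in cKO (SD, n = 2). Gpr161, a ciliary receptor that holds Hedgehog signalling down, had the highest CPM of the members and the level per length second to Ift20 (17.3 CPM per kilobase of exon). It was at 116 and 130 CPM in WT 1 and WT 2, and at 120 and 115 CPM in cKO 1 and cKO 2. The groups overlapped and WT 2 alone was high (log2 fold change -0.06, SE 0.146, 95% interval -0.40 to 0.27, unadjusted p = 0.672). Arl13b, the small GTPase that marks the ciliary membrane and holds the phosphatase Inpp5e there, was at 20.5 and 15.7 CPM in WT 1 and WT 2, and at 19.9 and 13.2 CPM in cKO 1 and cKO 2. As for Ift74, the first library of each genotype was the higher one (log2 fold change -0.13, SE 0.260, unadjusted p = 0.626). Inpp5e itself was at 39.5 and 45.1 CPM in WT and at 42.4 and 47.7 CPM in cKO (log2 fold change 0.09), with 20.3% of its exon bases shared with Pmpca on the opposite strand. Tulp3, the adaptor that brings receptors such as Gpr161 into the cilium, had a log2 fold change of 0.06.

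**Figure D3:**
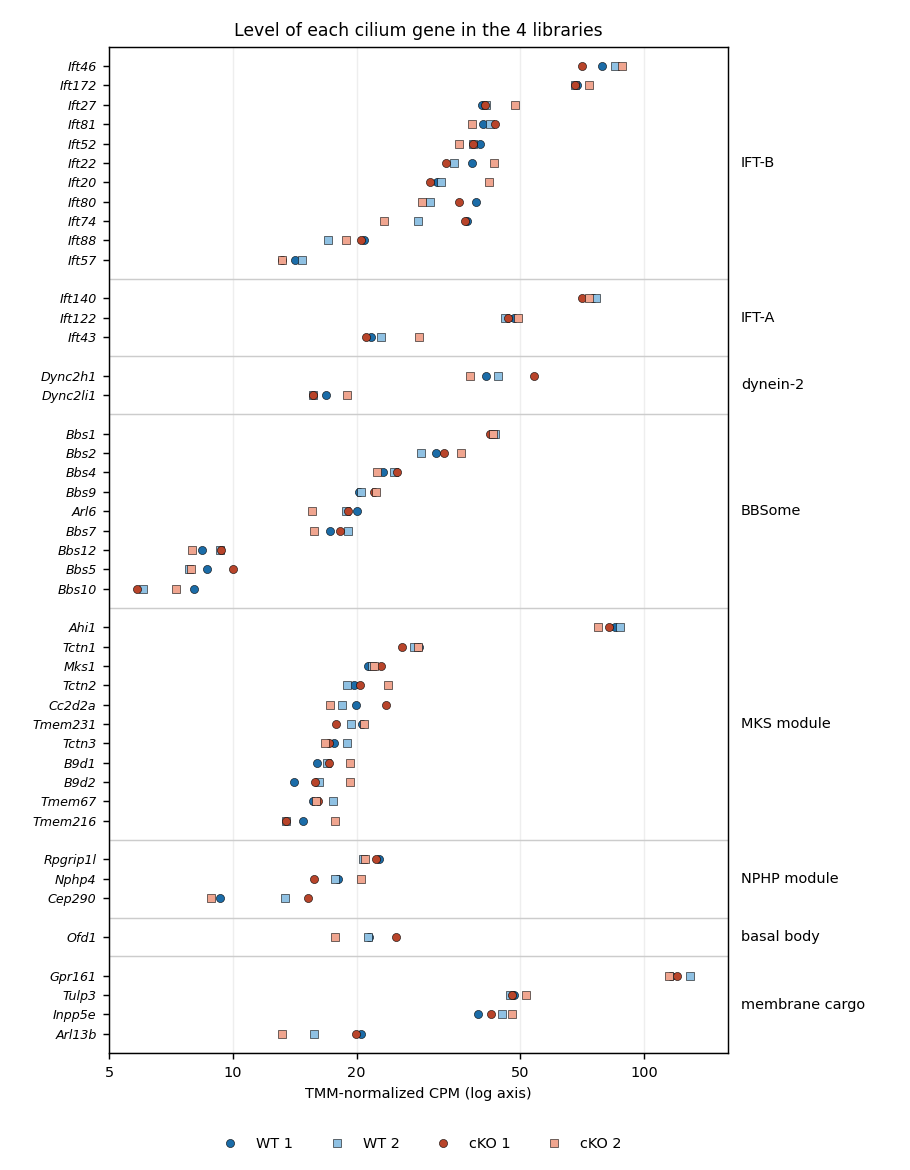
TMM-normalized CPM (log axis) of 44 of the 46 cilium genes in WT 1, WT 2, cKO 1 and cKO 2, grouped by role and ordered by mean within each role. The 2 genotypes lie among each other for most genes, and the widest gaps within a genotype are between cKO 1 and cKO 2, for Cep290, Ift74, Arl13b and Dync2h1.

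The levels of the members spanned a 17.7-fold range in mean CPM, from 6.80 (Bbs10) to 120.2 (Gpr161), with a median of 21.8 CPM that was close to the median of all genes tested (22.0). Per kilobase of exon the IFT-B genes had the highest median of the groups with several genes (10.5 CPM per kilobase, from 2.68 to 22.2). IFT-A followed at 8.86, then membrane cargo at 7.68, dynein-2 at 5.84, the MKS module at 4.53 and the BBSome at 3.59 CPM per kilobase. The NPHP module is left out of this order, and its median is not reported here. The ranges of the groups overlapped widely, since the MKS module alone ran from 2.10 to 11.8 CPM per kilobase. The length counts every annotated exon of a gene, so levels of genes with long alternative exons are understated.

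The cKO libraries were farther apart from each other for these genes than any WT library was from any cKO library. The median distance between libraries, as the absolute log2 ratio of CPM over the members, was 0.0922 between the WT libraries and 0.215 between the cKO libraries. Across genotypes it was 0.0926 for cKO 1 and WT 1, 0.101 for cKO 1 and WT 2, 0.136 for cKO 2 and WT 1, and 0.176 for cKO 2 and WT 2. Over all genes the same 6 distances ran from 0.153 to 0.280, again widest between the cKO libraries. 4 members were at least 0.5 apart on the log2 scale between cKO 2 and cKO 1. These were Cep290 (-0.75), Ift74 (-0.65), Arl13b (-0.58) and Dync2h1 (-0.51), all lower in cKO 2, and at the other end Ift20 (0.47) and Ift43 (0.42) were higher there.

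The ratio of cKO 2 to cKO 1 moved with the GC content of the transcript. Over the 46 members, Pearson's r of the log2 ratio with the GC content of the longest transcript was 0.672 and Spearman's rho was 0.662, compared with 0.596 and 0.623 over 16120 genes. The genes share the 2 libraries, so this describes those libraries and has no p. Between the WT libraries the relation was weaker, with r 0.203 and rho 0.231 over the members. The ratio of cKO 2 to a WT library rose with GC content (r 0.638 against WT 1 and 0.527 against WT 2 over the members). The ratio of cKO 1 to a WT library fell with it (r -0.294 against WT 1 and -0.548 against WT 2). Over all genes these 4 values were 0.473, 0.446, -0.138 and -0.319, beside 0.131 for WT 2 over WT 1. For cKO 1 against WT 1 the relation over all genes was thus about as weak as between the WT libraries. Of the 15 members with a GC content under 45%, 14 (93.3%) were lower in cKO 2 than in cKO 1, with a median log2 ratio of -0.28, and among all genes of that class 83.6% were lower. Of the 21 members with a GC content of 50% or more, 17 (81.0%) were higher in cKO 2, with a median of 0.16, and among all genes 77.2% were higher.

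**Figure D4:**
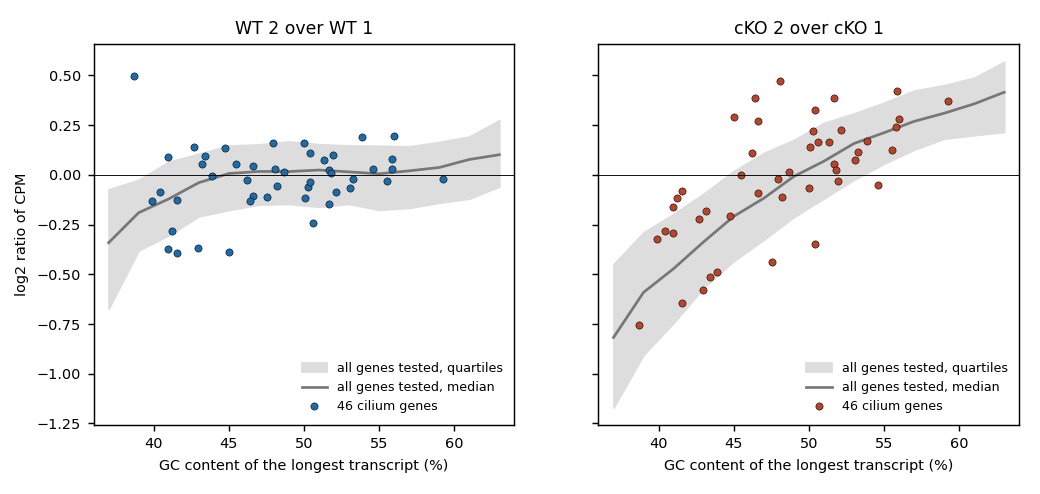
Log2 ratio of CPM between the 2 libraries of a genotype (vertical axis) against the GC content of the longest transcript (horizontal axis, percent), for WT on the left and cKO on the right. Points are the 46 cilium genes, the line is the median of all genes tested in bins of GC content and the band their quartiles. In cKO the members climb with GC content along the line of all genes, from -0.75 for Cep290 at 38.7% GC.

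The fold changes between genotypes carried a weaker trace of the same relation, with r 0.311 and rho 0.302 over the members and 0.193 and 0.266 over all genes. With the trend of each library on GC content removed, the median distance between the cKO libraries over the members was 0.163. In that fit 0 members had an unadjusted p of at most 0.05 by edgeR's quasi-likelihood test, beside 1.93% of all genes tested. The log2 fold changes of the members then ran from -0.13 to 0.29, with a smallest p of 0.198. With cKO 1 left out, Ift20 (log2 fold change 0.41, unadjusted p = 0.0269) and Ift74 (-0.48, unadjusted p = 0.0438) had an unadjusted p of at most 0.05 by edgeR's quasi-likelihood test, 2 of 46 members beside 15.0% of the 16915 genes then tested. With cKO 2 left out, Dync2h1 was the member with such a p (log2 fold change 0.35, unadjusted p = 0.0405), beside 2.67% of 16985 genes. These 3 genes are among those with a wide gap between the cKO libraries, and none had such a p with all 4 libraries.

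The rest of the cilium machinery was read from the same fit. Of 69 listed symbols of other transport, motor, transition zone, basal body and membrane traffic genes, 65 were tested and 4 were not among the symbols of the table. 0 of the 65 had an unadjusted p of at most 0.05, beside 1.23% of all genes. Their median log2 fold change was 0.02, with 36 above 0 and 29 below, and a range of -0.34 to 0.26. 59 were within 0.2 of 0, a band that held 67.0% of all genes, again not matched for level. Both cKO libraries were above WT for 4 of them and below for 2, beside 11% and 10.8% of all genes.

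Kif3a, a motor subunit of the kinesin-2 that pulls IFT trains outward, was counted 1701 and 2221 times in WT and 2175 and 1897 times in cKO (log2 fold change 0.04, unadjusted p = 0.800). The cKO libraries lay between the WT libraries. The 3 smallest p-values of these genes belonged to Dynlrb1, Tbc1d32 and Wdr60. Dynlrb1, a light chain that dynein-2 shares with the dynein of the cytoplasm, was counted 2619 and 2963 times in WT and 2879 and 3862 times in cKO, so cKO 2 alone was high (log2 fold change 0.26, SE 0.183, unadjusted p = 0.191). Tbc1d32, needed for the shape of the axoneme and for Hedgehog signalling, was counted 177 and 170 times in WT and 157 and 121 times in cKO (log2 fold change -0.34, SE 0.257, unadjusted p = 0.224). Wdr60, an intermediate chain of dynein-2, was counted 356 and 371 times in WT and 348 and 295 times in cKO (log2 fold change -0.19, unadjusted p = 0.347). For Tbc1d32 and Wdr60 both cKO libraries were the lower ones, with most of the difference in cKO 2.

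Reads of some members could not be assigned with certainty. 12 members share exon bases with another annotated gene, most of them on the opposite strand, and the strand setting of the counting is not given in the sources used here. The largest shares were those of Inpp5e with Pmpca and of Tctn1 with Hvcn1 (18.98% of the exon bases of Tctn1), where Pmpca had 6382 counts over the 4 libraries and Hvcn1 had 65. Reads from such shared bases cannot be told apart without strand.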

How the data were processed

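Total RNA of E13 telencephalic tissue (cerebral cortex in the methods of the study) was extracted with TRIzol and sequenced on an Illumina instrument by the authors, who deposited raw read counts per gene for 2 WT and 2 cKO libraries. The submitters' processing notes name Bowtie2 2.2.3, TopHat2 2.0.12, HTSeq 0.6.0 and the build mm9, with no role, parameters or strand setting. Gene positions were read as GRCm38, since 97.3% of the 27232 genes also in GENCODE M21 match its start or end to 1 base. Of the 27304 rows of the table, 11 are blank and were left out, and a second table of WT 1 and cKO 1 has the same counts for all 21342 shared genes. Columns with the authors' own mean normalized counts, CPM, fold changes and p-values were not used.

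Counts were normalized by TMM (factors 0.989 to 1.01), filtered with filterByExpr and tested over the whole table with edgeR 4.0.16 in R 4.3.3 (quasi-likelihood test, no covariate, Benjamini-Hochberg adjustment over 16145 genes). The 95% intervals use the same fit. Library ratios used CPM with a pseudocount of 0.5. DESeq2 1.42.0, other scalings, filters and thresholds, a replicate block, each library left out and, chosen after the data were seen, offsets that remove the GC trend were tried as alternatives. GC content, exon length and shared exon bases were taken from GENCODE M21, and promoter windows from RefSeq. The GC classes were chosen after the values were seen. Scripts were tested on simulated data.

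The members and gene lists were chosen with earlier results of these data known. Named with a value in every library were, per role, the members with the highest and lowest mean CPM, the 5 lowest and 5 highest log2 fold changes, any member with p of at most 0.05, members whose groups do not overlap at a log2 fold change of 0.2 or more, and Arl13b, Ift88, Kif3a, Cep290, Ofd1 and Gpr161, with the 3 smallest p-values among other cilium genes and Tmem173. Inpp5e, Mks1, Tctn3 and the other members named with values were added after their values were seen. For 2 members and 1 tissue marker that these rules cover, values of their own are not reported here, and both members enter the counts, sums and medians.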

Additional observations from a re-analysis of the deposited data

How the results depend on the processing

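The absence of calls among the cilium genes held under RLE and upper-quartile factors, DESeq2, no filter and at least 10 counts in every library. It also held with the replicate block, the GC offset and both together. At the stricter threshold of 0.01 a count of 0 was fixed in advance. In all of these fits 0 members had an unadjusted p of at most 0.05. With a library left out, 0 to 2 members had such a p, and the lone library of a group is then assumed to vary like the other group. The median log2 fold change of the members, 0.01, moved to 0.0495 with the GC offset and to 0.0485 with the GC offset and the replicate block, and ran from -0.0063 to 0.0553 with a library left out. Members whose groups do not overlap numbered 10 to 20 (cKO higher, beside 24.4% to 36.9% of all genes) and 9 to 20 (cKO lower, beside 24.0% to 38.2%) with a library left out, since fewer libraries are compared. Of 276 values of the 23 named members under alternatives, 21 changed sign with a library left out and 6 under other settings, 3 passed p of 0.05 (Ift20 and Ift74 without cKO 1, Dync2h1 without cKO 2) and 10 moved by 1 SE or more.

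Counts over all genes depended more on the setting, and the cause was not tested. The 131 genes called with a 2-fold or larger change and p of at most 0.05 became 405 with no filter, 72 with at least 10 counts in every library, 65 in DESeq2, 208 with the replicate block and 14 at p of at most 0.01, and 104 to 531 with a library left out (531 without cKO 1, 476 without WT 2). The 199 genes at p of at most 0.05 became 758 with no filter, 127 in DESeq2, 535 with the replicate block, 311 with the GC offset, 458 with both and 17 at p of at most 0.01, and 126 (without WT 1) to 2542 (without cKO 1) with a library left out. Genes with an adjusted p under 0.05 numbered 65 with no filter, 5 with the replicate block and 0 to 116 with a library left out, against 0.

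The labels number the libraries 1 and 2 in both groups but do not say that a number marks a shared litter or day, and 2 pairs are too few to show pairing. Deviations from the group means of same-numbered libraries correlated at 0.126 over all genes and at 0.0169 over the members. With the replicate block the median log2 fold change of the members was 0.0014. With 2 libraries per group, a 1.41-fold difference was not excluded by the 95% interval of 31 of the 46 members.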
